A study of Homo sapiens with 4 samples.

Results

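The genes described here are 42 protein-coding genes of the centromere, the kinetochore and the spindle checkpoint, taken by symbol from a deposited table of 58735 human genes. All 42 symbols were found, each once, and all 42 were among the 12033 genes tested. CENPP passed the filter on low values through the shControl libraries alone. RNA was sequenced from lentivirus-transduced Myla, a human line of mycosis fungoides, which is a skin lymphoma of T cells. The shFOXM1 group (2 libraries, genotype labelled FOXM1 knockdown) received short hairpin RNA against FOXM1, and the shControl group (2 libraries, labelled WT) a scrambled hairpin. Both groups got 10 uL of virus medium, had the medium changed after 24 h and were kept for a further 72 h, so the shControl cells carry a lentivirus too. All 4 libraries come from 1 cell line, and whether the shFOXM1 libraries hold the same hairpin or different ones is not stated. Levels are FPKM, read counts divided by gene length and sequencing depth, and changes are differences of log2(FPKM + 1), shFOXM1 minus shControl, tested with limma over all 12033 genes.

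The kinetochore is the protein assembly that joins each chromosome to the spindle in mitosis. It is built on centromeric chromatin, where the histone variant CENP-A is placed by its chaperone. A constitutive network of CENP proteins sits on that chromatin, an outer layer with the NDC80 complex binds microtubules, and unattached kinetochores signal through the spindle checkpoint to hold back anaphase. Much of this machinery is made in late S phase, G2 and mitosis. FOXM1, a forkhead transcription factor, acts on late cell cycle genes together with the MuvB complex, which recognises a short promoter element called the cell cycle genes homology region (CHR).

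FOXM1, the targeted gene, had 26.5 and 27.6 FPKM in the controls, with 9.27 and 5.59 FPKM in shFOXM1 1 and 2 (limma log2 fold change -1.77, SE 0.23, adjusted p = 0.173). The whole reads behind the FPKM values summed to between 14147084 and 15017728 per library. The T cell list summed to 570, 557, 624 and 446 FPKM in shControl 1 and 2 and shFOXM1 1 and 2. IL2RA made up much of that sum, at 258, 249, 354 and 141 FPKM in the same order. Of the 10 genes on the list, 7 passed the filter. The groups overlapped for CD2, CD3D, TRAC and IL2RA. TNFRSF8, CD28 and CD3G were lower in shFOXM1 with no overlap, at log2 fold changes of -0.56, -0.41 and -0.20. CD4 was at 0 in all 4 libraries, CD3E was at most 0.138 FPKM and CD5 at most 0.0611 FPKM. Lists for B cells, myeloid cells, fibroblasts with endothelium, and epithelium had 1, 1, 2 and 2 of 5 genes past the filter, and MS4A1, DCN, KRT14 and EPCAM were at 0. Those past the filter were CD79A, CSF1R, COL1A1, COL3A1, CDH1 and TP63. COL3A1 was the highest of them, at 24.5, 22.7, 45.1 and 15.9 FPKM in shControl 1 and 2 and shFOXM1 1 and 2. In the same order CSF1R was at 12.8, 9.04, 13.5 and 8.47 FPKM and CD79A at 1.73, 1.44, 0.27 and 7.38 FPKM. The groups overlapped for each of these genes but COL1A1, which was higher in shFOXM1 (2.50 and 2.75 against 3.23 and 4.48 FPKM). The part of such markers in the members' values was not tested. Over all genes, the SD of the log2 difference was 0.424 between the shFOXM1 libraries and 0.263 between the controls. The design text calls the libraries biological replicates without saying that each came from its own transduction, so p-values cover only library-to-library spread, which could be technical. With 2 against 2, an exact permutation test of a single gene cannot go below p = 0.333.

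As a group, the kinetochore and checkpoint genes were lower in shFOXM1. The mean was lower for 39 of 42 members and higher for 3, where 50.1% of all genes tested had a lower mean and 49.9% a higher one. For 34 of 42 members the groups did not overlap, with both shFOXM1 libraries below both controls, against 25.9% of all genes tested. For 1 member they lay above both, against 27.3%. The 34 include CENPP, which passed the filter through the shControl libraries alone. A log2 fold change of -0.5 or less was found for 20 members, against 7.08% of all genes. The median log2 fold change of members was -0.49, beside -0.00 for all genes, and 7.33% of all genes lay below that median. On the linear scale the median member was at 0.679 times its shControl level. Common reference genes differed between the groups too. HPRT1, GAPDH and PPIA were lower with no overlap, at log2 fold changes of -0.50, -0.34 and -0.18. ACTB was higher with no overlap, at 0.61, and TBP overlapped, at -0.11. No member passed limma's test over all genes (0 of 42 in either direction, with 0% of all genes called lower and 0% higher; smallest adjusted p among members 0.173). Before adjustment, 25 members were lower and 1 was higher at a limma p under 0.05, against 8.99% and 8.82% of all genes. Voom with library weights called 0 members, with 0.0748% of all genes called lower and 0.141% higher.

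**Figure D1:**
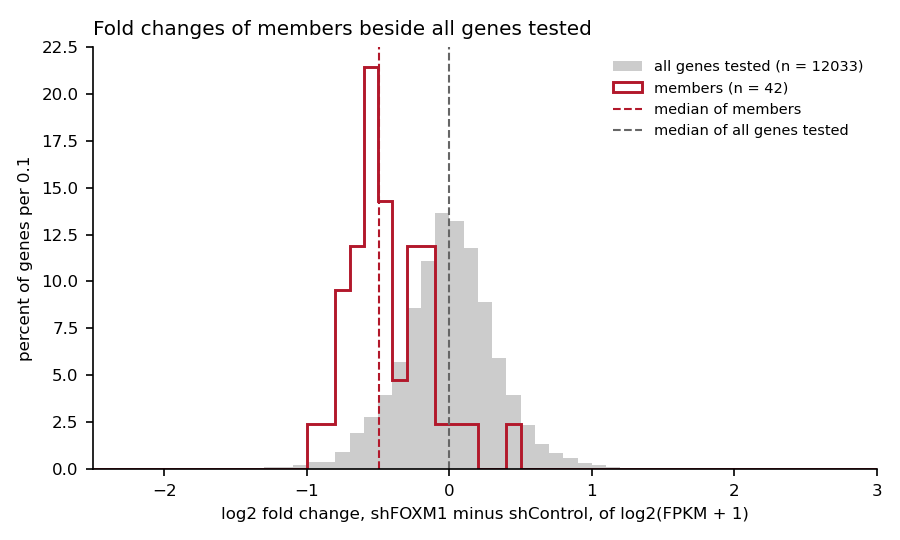
Share of genes (percent, y axis) in each bin of log2 fold change (x axis, shFOXM1 minus shControl) for all 12033 genes tested (grey) and for the 42 members (red outline); dashed lines are the medians. The members' distribution lies to the left of that of all genes, with a median of -0.49.

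Markers of dividing cells were lower in the same libraries. MKI67, a nuclear protein of cycling cells, had 45.0 and 45.3 FPKM in the controls, against 31.5 and 25.2 FPKM in shFOXM1 1 and 2. CDK1, the kinase of mitotic entry, had 34.8 and 33.1 FPKM in the controls, against 20.2 and 15.6 FPKM. All 6 genes of that list (MKI67, PCNA, MCM2, TOP2A, CCNB1 and CDK1) had both knockdown libraries under both controls, with a median log2 fold change of -0.73. Of all genes tested, 25.9% lay under both controls in this way. In bulk RNA, fewer dividing cells and less of each RNA per dividing cell cannot be told apart.

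The plot of every member by library shows where the groups separate. For ZWINT, NSL1, CENPK, CENPL and SGO1 the shFOXM1 libraries lie almost on each other. For OIP5, ZWILCH, SKA2, NUF2, BUB1, MAD2L1, KNTC1 and CENPU they lie far apart, with shFOXM1 2 the lower.

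**Figure D2:**
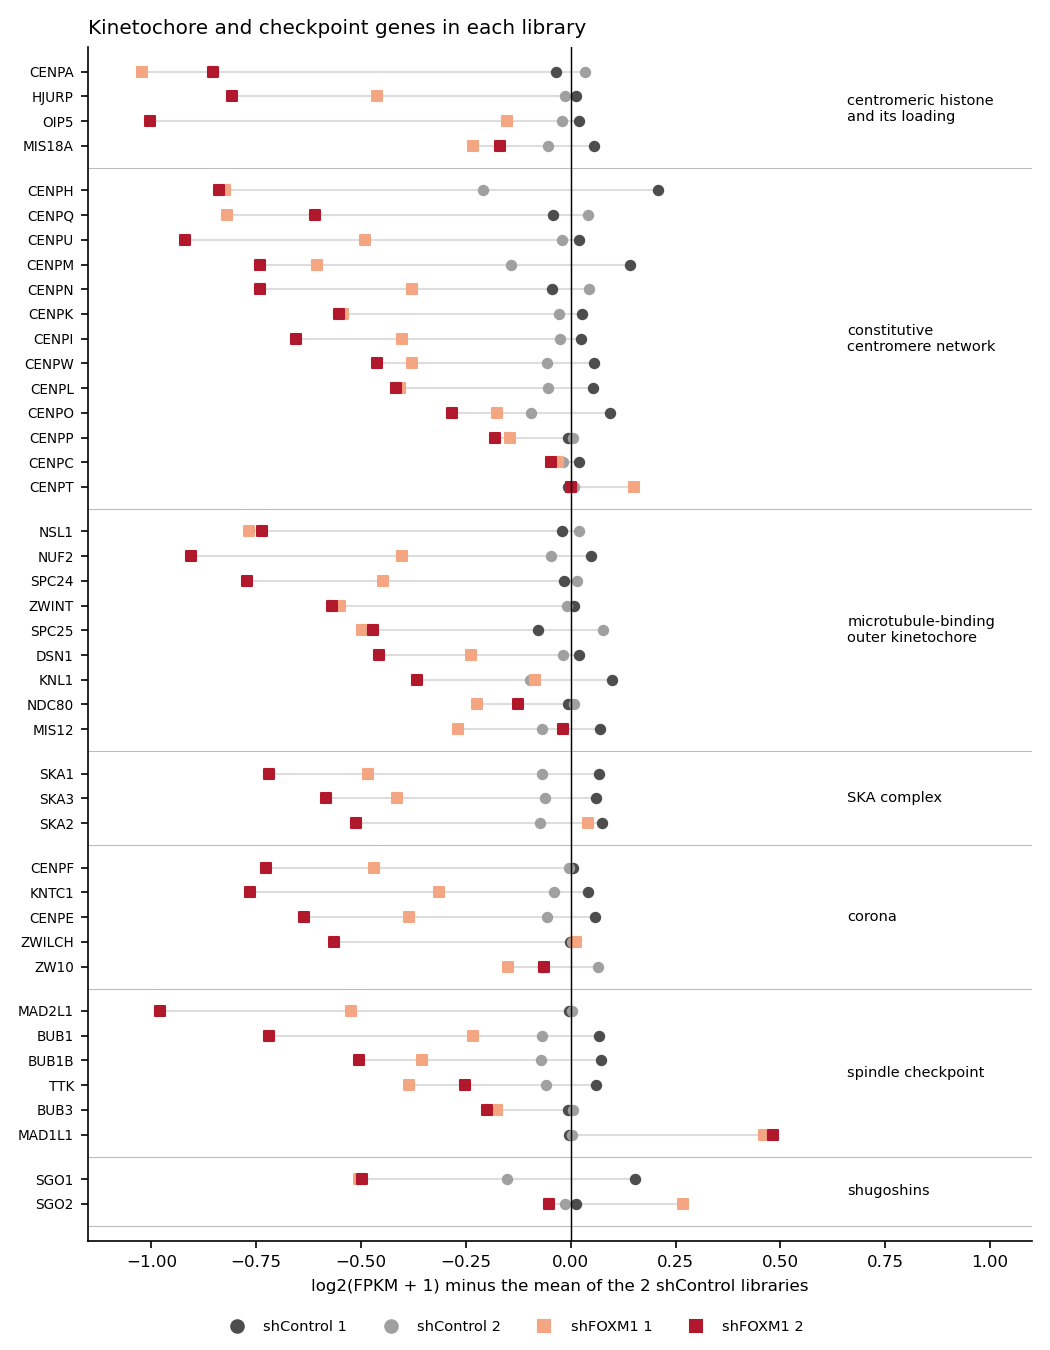
Log2(FPKM + 1) of each of the 42 members (rows, grouped by role) in each library, minus the mean of the 2 shControl libraries; circles are shControl and squares shFOXM1. Squares lie left of both circles for 34 members, right of both for MAD1L1, and overlap the circles for 7.

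Promoter sequence was searched for the CHR, the element recognised by MuvB, and for other motifs. RefSeq promoter windows of GRCh38.p14, from 250 bases before to 50 bases after each gene's start, were found for 34 of the 42 members. Counted on both strands, the CHR letters TTTGAA or TTCGAA were present in the windows of 19 of 34 members (55.9%), against 19.5% of the 27305 symbols in the table and 15.0% of tested genes. Of these 19 members, 18 were lower with no overlap, and the median log2 fold change of the 19 was -0.50. Of the 15 without the letters, 9 were lower in this way, CENPP among them, and the median was -0.35. Over all tested genes matched by symbol, the median was -0.03 for the 1219 with the letters and 0.01 for the others. The share lower with no overlap was not computed over all genes for this split. The letters began within 50 bases of the start in 16 of 34 members (47.1%), against 6.24% of all symbols and 5.07% of tested genes; this nearer window was chosen after the positions were seen, and it leaves out HJURP (-0.64), CENPC (-0.04) and ZW10 (-0.11, groups overlapping), whose letters lie farther away. All 16 of these members had both shFOXM1 libraries below both shControl libraries, with log2 fold changes from -0.94 (CENPA) to -0.17 (NDC80) and a median of -0.53. Of the 18 members with no CHR letters there, 11 had groups that did not overlap in that direction, and the median was -0.31. Over all tested genes matched by symbol, 39.9% of the 411 genes with such letters near the start were lower with no overlap, and 25.1% of the others. The medians of those genes were -0.09 with the letters and 0.01 without. A match of letters is a description and not evidence of binding. The part of the CHR in the members' lower values was not tested.

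The stretches below hold the CHR letters of the members with the lowest fold changes in each of 3 letter forms, and of NDC80, the smallest change among the 16. Each is written in the direction of the gene with up to 12 bases on either side, and capitals mark the CHR letters.
CENPA, chr2:26786026-26786055, plus strand: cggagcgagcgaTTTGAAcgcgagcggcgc
MAD2L1, chr4:120066807-120066836, minus strand: tgcgtcgttactTTTGAAacgcttggcggg
NUF2, chr1:163321958-163321987, plus strand: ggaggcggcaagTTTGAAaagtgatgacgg
OIP5, chr15:41332573-41332602, minus strand: gcctggcgtgtaTTCGAAaggaaggcgccg
SGO1, chr3:20186192-20186221, minus strand: gaggcggaaaatTTCGAAtgtggcggcggt
BUB1, chr2:110678045-110678074, minus strand: ctgcgcggggtaTTCGAAtcggcggcggct
ZWINT, chr10:56361273-56361302, minus strand: gtcgactgtgacTTCAAAgtaatcttaggg
SKA3, chr13:21176538-21176567, minus strand: ccggcgccgagaTTCAAActagtggcggga
NDC80, chr18:2571542-2571571, plus strand: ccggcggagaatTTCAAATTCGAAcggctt

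TTCAAA is TTTGAA read on the other strand, and 3 of the 16 members had their first match in that form, 4 as TTCGAA and 9 as TTTGAA. NDC80 holds adjoining matches. CENPA, whose match begins at position -18 from the RefSeq start, inside the longer gene model of the deposited table, and MAD1L1, which has no CHR letters in its window, are the members with the lowest and the highest fold change. CENPF, like CENPK, carries 3 CCAAT boxes, the letters bound by NF-Y, in its stretch. The CHR letters of CENPF begin at position 41, after the start, and so lie outside that stretch. The last 100 bases before the start are shown for CENPA, CENPF and MAD1L1, with CHR letters and CCAAT boxes (either strand) in capitals.
CENPA, chr2:26785956-26786055, plus strand: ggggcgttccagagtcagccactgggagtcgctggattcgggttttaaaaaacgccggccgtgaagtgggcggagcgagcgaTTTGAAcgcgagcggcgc
CENPF, chr1:214603095-214603194, plus strand: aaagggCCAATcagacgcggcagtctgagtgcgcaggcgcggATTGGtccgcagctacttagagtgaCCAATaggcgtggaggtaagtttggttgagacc
MAD1L1, chr7:2232946-2233045, minus strand: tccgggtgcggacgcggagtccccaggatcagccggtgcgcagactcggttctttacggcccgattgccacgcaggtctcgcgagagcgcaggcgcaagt

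CCAAT was in the 300-base windows of 22 of 34 members (64.7%, against 39.7% of all symbols and 43.6% of tested genes), and the median log2 fold change was -0.52 with it and -0.46 without. The forkhead core TAAACA was in 4 of 34 members (CENPE, CENPQ, CENPP and BUB1B), or 11.8%. That is below the 14.7% of all symbols and above the 9.44% of tested genes, so the order turns with the background. E2F letters were searched as TTTGGCG, as its variant TTTCCCG, and in the further spellings TTTGCCG and, last, TTTCGCG. They were in 7 of 34 (20.6%, against 10.4% of all symbols and 16.8% of tested genes), with a median of -0.28 with them and -0.50 without. Over tested genes, the medians with and without were -0.0025 and 0.015 for CCAAT and -0.011 and 0.010 for the E2F letters.

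**Figure D3:**
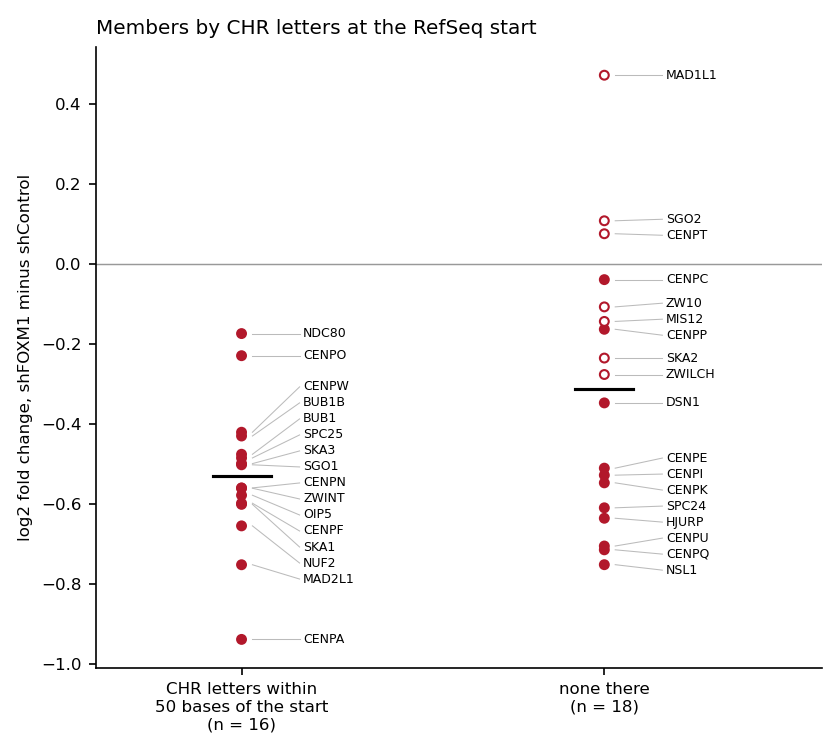
Log2 fold change (y axis, shFOXM1 minus shControl) of the 34 members with a RefSeq promoter window, split by CHR letters within 50 bases of the start; bars are medians, filled points have both shFOXM1 libraries below both shControl libraries. All 16 points on the left are filled and lie below 0, while the 18 on the right run from -0.75 (NSL1) to 0.47 (MAD1L1). The 50-base limit was chosen after the positions were seen. HJURP, CENPC and ZW10, with CHR letters farther from the start, are on the right.

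The RNAs of CENP-A and of its loading factors had lower levels in shFOXM1, with the largest change for CENPA. CENPA (ENSG00000115163, plus strand of chromosome 2, 26764289 to 26801067), the histone H3 variant that marks the centromere, had 16.9 and 17.7 FPKM in the controls, against 8.01 and 9.13 FPKM in shFOXM1 1 and 2. The group means were 17.3 ± 0.61 and 8.57 ± 0.797 FPKM (SD, n = 2 each). That is the largest change among the members, a log2 fold change of -0.94 (SE 0.12, limma adjusted p = 0.173). HJURP, the chaperone that deposits CENP-A, was at 25.2 and 24.7 FPKM in shControl and at 17.8 and 13.8 FPKM in shFOXM1 (log2 fold change -0.64, SE 0.15). OIP5, a subunit of the MIS18 complex that licenses deposition, was at 8.38 and 8.12 FPKM in shControl and at 7.32 and 3.61 FPKM in shFOXM1. Only shFOXM1 2 was far below the controls. OIP5 shares 38.0% of its exon bases with OIP5-AS1 on the other strand, which was at 16.4, 15.8, 12.2 and 17.6 FPKM in the same order; how reads in shared bases were counted is not stated, and the part of the antisense RNA in the OIP5 values was not tested. MIS18A, another subunit, was at 16.7 and 15.4 FPKM in shControl and at 13.5 and 14.2 FPKM in shFOXM1, a small difference (log2 fold change -0.20, SE 0.11) with groups that did not overlap.

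The constitutive centromere network is the set of CENP proteins that stay on the centromere through the cell cycle. Of its 13 genes among the members, 12 were lower with no overlap, against 25.9% of all genes tested, and the median log2 fold change was -0.53. The 12 include CENPP, which passed the filter through the shControl libraries alone, and CENPC, whose difference was smaller than its SE. Other subunits of the network, CENPS, CENPX and ITGB3BP (CENP-R), are not among the members, and none of them was lower with no overlap. CENPS had 1.05 and 0.974 FPKM in the controls, against 1.59 and 1.06 FPKM in shFOXM1, higher with no overlap (log2 fold change 0.20, SE 0.19). Its values rested on only 26 and 25 reads in shControl and 41 and 28 reads in shFOXM1, and the difference was close to its SE. CENPX and ITGB3BP overlapped, at log2 fold changes of -0.23 and -0.18. CENPH and CENPK belong to the same subcomplex. CENPH had 12.6 and 9.15 FPKM in the controls, against 5.63 and 5.56 FPKM in shFOXM1 1 and 2 (log2 fold change -0.83, SE 0.17, limma adjusted p = 0.183). The shControl libraries stood far apart for this gene, and both shFOXM1 libraries lay well below them. CENPK was at 9.13 and 8.76 FPKM in shControl and at 5.83 and 5.78 FPKM in shFOXM1. CENPQ and CENPU, 2 of the subunits of another subcomplex, were at log2 fold changes of -0.71 and -0.70. CENPO and CENPP, described below, changed less, at -0.23 and -0.16. CENPQ was at 6.99 and 7.47 FPKM in shControl and at 3.66 and 4.39 FPKM in shFOXM1, and CENPU at 22.2 and 21.6 FPKM against 15.3 and 11.1 FPKM. CENPM, with 24.8 and 20.2 FPKM in shControl, was at 14.4 and 13.0 FPKM in shFOXM1. CENPN, which reads the CENP-A nucleosome, was at 6.64 and 7.12 FPKM against 5.06 and 3.72 FPKM. CENPI, CENPL and CENPW had log2 fold changes of -0.53, -0.41 and -0.42.

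Not all of the network was lower by that much. CENPT, which links the inner centromere to the NDC80 complex, was at 4.62 and 4.67 FPKM in shControl and at 5.27 and 4.64 FPKM in shFOXM1, with overlapping groups. CENPC, the other link to the outer kinetochore, was at 1.61 and 1.54 FPKM against 1.52 and 1.49 FPKM. It counts among the members that did not overlap, but rested on 194 to 197 reads in every library, and its difference was within the spread (log2 fold change -0.04, SE 0.15). CENPP was the lowest member, at 1.02 and 1.04 FPKM in shControl and 0.835 and 0.791 FPKM in shFOXM1, and CENPO was at 8.61 and 7.43 against 6.97 and 6.40 FPKM. CENPP shares 38.0% of its exon bases with IPPK and CENPO 27.0% with ADCY3, both on the other strand. ADCY3 was at 38.3 and 34.2 FPKM in shControl and at 36.5 and 19.9 FPKM in shFOXM1, and its part in the CENPO values was not tested.

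The outer kinetochore holds the MIS12 complex, KNL1 with its partner ZWINT, and the 4-subunit NDC80 complex that grips microtubules. All 9 members had a lower mean and 7 did not overlap, against 50.1% and 25.9% of all genes tested, with a median of -0.48. ZWINT had the highest level of all members, at 42.7 and 42.2 FPKM in shControl and 28.6 and 28.3 FPKM in shFOXM1. The libraries of each group lay within 1 FPKM of each other (log2 fold change -0.56, SE 0.10, limma adjusted p = 0.176). NSL1 (ENSG00000117697, minus strand of chromosome 1, 212726153 to 212791782), a subunit of the MIS12 complex, was at 9.99 and 10.3 FPKM in shControl and at 5.55 and 5.69 FPKM in shFOXM1 (log2 fold change -0.75, SE 0.11, limma adjusted p = 0.173). DSN1, of the same complex, was at 14.0 and 13.7 FPKM against 11.6 and 9.82 FPKM. MIS12, which names the complex, overlapped between groups, at 14.9 and 13.4 FPKM against 11.6 and 13.9 FPKM. KNL1, the scaffold on which checkpoint proteins gather, overlapped too, at 5.80 and 4.93 FPKM against 4.99 and 3.92 FPKM.

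Within the NDC80 complex the subunits differed in size of change. NUF2 was at 13.3 and 12.4 FPKM in shControl and at 9.49 and 6.40 FPKM in shFOXM1 (log2 fold change -0.65, SE 0.20), and NDC80, with which it pairs, at 10.5 and 10.6 FPKM against 8.86 and 9.55 FPKM (log2 fold change -0.17, SE 0.11). The pair at the other end of the complex was lower in both subunits. SPC24 was at 8.54 and 8.74 FPKM against 6.07 and 4.65 FPKM, and SPC25 at 11.1 and 12.5 FPKM against 8.07 and 8.23 FPKM. The SKA complex, which holds the NDC80 complex on the moving microtubule end, was lower for SKA1 (10.6 and 9.58 FPKM against 6.94 and 5.74 FPKM) and SKA3 (15.4 and 14.1 FPKM against 10.8 and 9.50 FPKM). SKA2 overlapped, at 16.2 and 14.6 FPKM against 15.8 and 10.5 FPKM.

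The corona is the outermost layer, present before microtubules attach. CENPF, a very large protein of that layer and a usual marker of G2 and mitosis, was at 18.5 and 18.3 FPKM in shControl and at 13.0 and 10.7 FPKM in shFOXM1 (log2 fold change -0.60, SE 0.13, limma adjusted p = 0.187), on 1909 to 3159 reads per library. CENPE, the kinesin that carries chromosomes to the spindle equator, was at 7.58 and 6.93 FPKM against 5.32 and 4.31 FPKM. The ROD-Zwilch-ZW10 complex, which recruits dynein and the checkpoint protein MAD1, was uneven. KNTC1, the gene of ROD, was at 9.28 and 8.71 FPKM against 7.04 and 4.88 FPKM, and ZW10 at 8.88 and 9.81 FPKM against 8.31 and 8.88 FPKM, with overlap. ZWILCH was at 23.5 FPKM in both shControl libraries and at 23.7 and 15.6 FPKM in shFOXM1 1 and 2, so that only shFOXM1 2 was lower. ZWILCH shares 158 of its 4849 exon bases (3.26%) with RPL4 on the other strand, a ribosomal protein gene at 509 and 505 FPKM in shControl and at 440 and 251 FPKM in shFOXM1; the part of RPL4 reads in the ZWILCH values was not tested.

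Of the 6 spindle checkpoint genes, 5 were lower with no overlap and MAD1L1 was higher, against 25.9% and 27.3% of all genes tested. MAD2L1 (ENSG00000164109, minus strand of chromosome 4, 120055608 to 120067074) encodes MAD2, the protein that sequesters the anaphase activator. It was at 20.8 and 21.0 FPKM in shControl and at 14.2 and 10.1 FPKM in shFOXM1 (log2 fold change -0.75, SE 0.18, limma adjusted p = 0.191). BUB1, the kinase that docks checkpoint proteins and marks the inner centromere, was at 21.3 and 19.3 FPKM against 17.1 and 11.9 FPKM. BUB1B, which encodes BUBR1 of the mitotic checkpoint complex, was at 20.7 and 18.6 FPKM against 15.1 and 13.5 FPKM. TTK, the MPS1 kinase that starts the signal, was at 8.60 and 7.85 FPKM against 6.05 and 6.74 FPKM. BUB3, the shared adaptor of BUB1 and BUBR1, changed little, at 26.6 and 26.8 FPKM against 23.5 and 23.1 FPKM (log2 fold change -0.19, SE 0.10).

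MAD1L1 (ENSG00000002822, minus strand of chromosome 7, 1815793 to 2233243) encodes MAD1, which anchors MAD2 at unattached kinetochores. It was the only member above both controls in both shFOXM1 libraries, at 6.86 and 6.90 FPKM in shControl and 9.84 and 10.0 FPKM in shFOXM1 (log2 fold change 0.47, SE 0.11, limma adjusted p = 0.189). The values rested on 704 and 736 reads in shControl and 1053 and 1103 reads in shFOXM1, and the libraries of each group lay close together. MAD1L1 shares no exon bases with another annotated gene.

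The shugoshins protect cohesin at the centromere. SGO1, which acts in mitosis, was at 6.04 and 4.69 FPKM in shControl and at 3.46 and 3.48 FPKM in shFOXM1 (log2 fold change -0.50, SE 0.15). SGO2 was at 5.27 and 5.16 FPKM against 6.47 and 4.99 FPKM, with shFOXM1 1 above and shFOXM1 2 below the controls.

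Because partners differed in size of change, some of their RNA ratios did not overlap between the groups. FPKM is scaled by the deposited gene length, so levels of different genes can be set side by side as far as that length holds for the RNA present. The ratio of MAD1L1 to MAD2L1 was 0.329 in each shControl library and 0.691 and 0.991 in shFOXM1 1 and 2. In shFOXM1 2 the levels, 10.0 and 10.1 FPKM from 1103 and 885 reads, were too close to order. NDC80 to NUF2 was 0.784 and 0.851 in shControl and 0.934 and 1.49 in shFOXM1. MIS12 to NSL1 was 1.49 and 1.30 against 2.08 and 2.45, and CENPT to CENPW, which encode proteins that bind as a pair, 0.332 and 0.366 against 0.525 and 0.494. These 4 ratios did not overlap between groups. SPC24 to SPC25 did, at 0.767 and 0.698 against 0.752 and 0.564. Among the other pairs computed, SKA2 to SKA1, SGO2 to SGO1, ZW10 to KNTC1, CENPQ to CENPO and CENPA to HJURP did not overlap either. BUB1 to BUB3 did overlap. Of all single genes tested, 25.9% were lower and 27.3% higher with no overlap, and no such share was computed for ratios. The ratios were chosen after the levels were seen and were not tested.

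**Figure D4:**
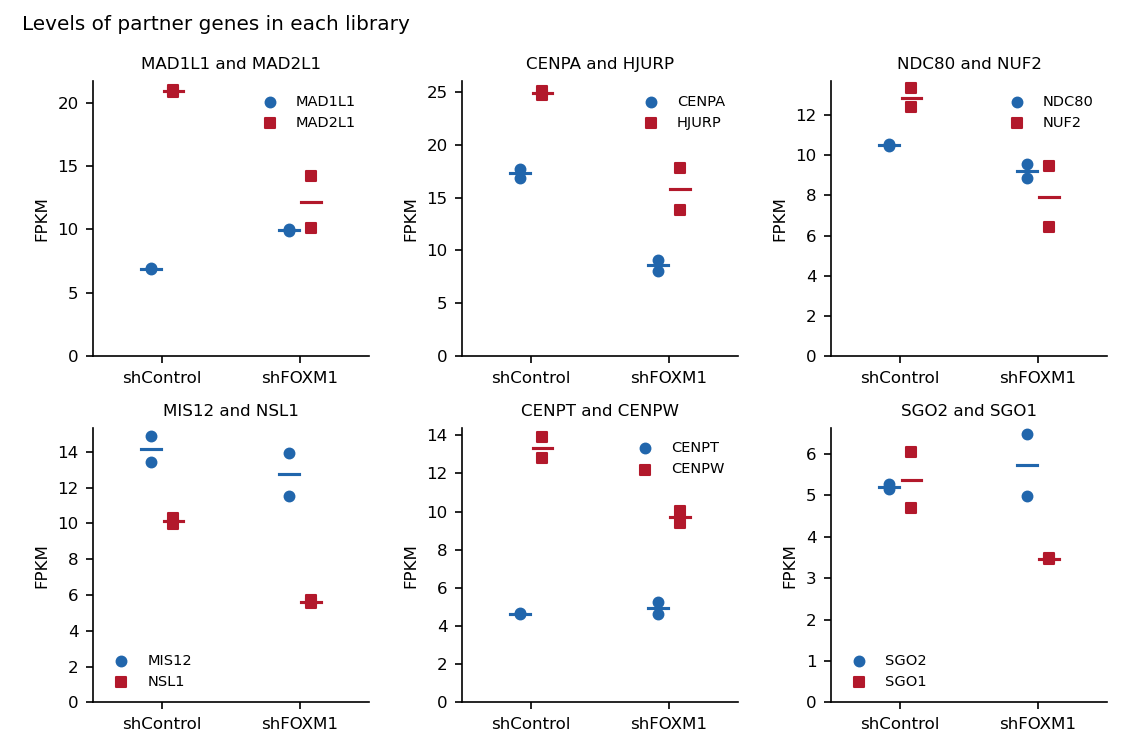
FPKM (y axis, from 0) of 6 pairs of partner genes in the 2 shControl and 2 shFOXM1 libraries; points are libraries and bars are group means. MAD1L1 is higher and MAD2L1 lower in shFOXM1, and NDC80, MIS12, CENPT and SGO2 move less than their partners do.

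The shFOXM1 libraries shared the direction but not the size of the change. Against the shControl mean, the median member was at -0.38 on the log2 scale in shFOXM1 1 and at -0.56 in shFOXM1 2, while shControl 2 lay -0.04 from shControl 1. FOXM1 was also lower in shFOXM1 2. The library size implied by the FPKM values differed from the recovered read total by -1.44% in shFOXM1 1 and 3.80% in shFOXM1 2. In shControl 1 and 2 that difference was 0.319% and -0.173%. Its part in the gap between the shFOXM1 libraries was not tested. With library sizes from recovered reads, the members' median log2 fold change was -0.48. Of the 42 members, 31 were lower in shFOXM1 2 than in shFOXM1 1, against 53.3% of all genes tested, and 28 were lower in shControl 2 than in shControl 1, against 47.4%. The SD over members of the log2 difference was 0.243 between the shFOXM1 libraries and 0.113 between the shControl libraries. CENPA, CENPQ, MIS12, TTK, NDC80 and MIS18A were among those higher in shFOXM1 2 than in shFOXM1 1.

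Limma called members only where an shFOXM1 library was left out, so that the lone library was taken to vary as the controls did. Without shFOXM1 1, 27 members were called lower and MAD1L1 higher, against 14.5% and 11.3% of all genes. Without shFOXM1 2, 6 members were called lower and 0 higher, against 2.95% and 2.34% of all genes. Those 6, CENPA, CENPQ, CENPU, MAD2L1, NSL1 and ZWINT, were also among the 27. MAD2L1 was at -0.98 without shFOXM1 1 (limma adjusted p = 0.0122) and at -0.52 without shFOXM1 2 (adjusted p = 0.0479). Without shControl 1 or shControl 2, limma called 0 members.

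A list of 38 further genes of the kinetochore, its motors, its inner-centromere kinases and CENP-A chaperones was described the same way. Of these, 27 had a lower mean, against 50.1% of all genes. With no overlap, 19 were lower and 7 higher, against the same 25.9% and 27.3% of all genes. The median log2 fold change was -0.17, and limma called 0 of 38 over all genes. At an unadjusted limma p under 0.05, 11 were lower and 1 was higher, against 8.99% and 8.82% of all genes. The lowest unadjusted p belonged to KIF2C, a kinesin that takes microtubules apart at the centromere (27.1 and 27.3 FPKM in shControl, 19.0 and 16.4 FPKM in shFOXM1). AURKB, the kinase that corrects wrong attachments, was at 55.9 and 57.3 FPKM against 40.7 and 35.1 FPKM. RBBP4, a histone chaperone, was at 25.01 and 22.4 against 16.4 and 14.6 FPKM, and PLK1, a mitotic kinase, at 26.7 and 26.6 against 19.9 and 16.2 FPKM. On the other side, DYNC1H1, the heavy chain of dynein, had 7.40 and 8.03 FPKM in the controls, against 10.8 and 11.3 FPKM in shFOXM1, and DCTN1, the large dynactin subunit, at 20.4 and 19.0 against 26.2 and 22.8 FPKM.

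Counting limits some of these values. Across members and libraries the reads per gene ran from 68 (OIP5 in shFOXM1 2) to 3285 (BUB3 in shControl 2). Of the 42 members, 17 share exon bases with another annotated gene, and 3 (OIP5, CENPP and CENPO) share at least 25% of them. Named pseudogenes exist for 7 members, and none of these 9 copies was above 0.114 FPKM in any library.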

How the data were processed

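The authors deposited 1 table of FPKM for 4 libraries, with their gene lengths, per the file headers. The aligner, the counter and the strand setting: not given in the sources used here. Mouse builds (GRCm 38, mm 10) stand in the submitters' processing notes, while all 58735 identifiers, starts and ends equal human GENCODE 29 (GRCh38). Columns named sh0 were taken as shControl, and sh1 and sh2 as shFOXM1; 0 columns belonged to other samples.

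Multiplying FPKM by length recovered a whole number of reads for 100% of values (tolerance 0.02 read). The filter kept genes reaching 1 FPKM in 2 or more libraries. Log2(FPKM + 1) was compared with limma 3.58.1 (R 4.3.3; trended empirical Bayes, two-sided p, Benjamini-Hochberg adjustment over all genes, threshold 0.05), checked on simulated data. This scale understates changes of low genes. Promoters came from RefSeq (GRCh38.p14). Members, lists, motifs and tests were chosen with earlier results of these data known. Values in every library are given, per role, for up to 4 members with the smallest unadjusted p and the one with the largest, and for each member that overlapped or was higher; further members were added after their values were seen. Of other kinetochore genes, the 4 lower and 2 higher with the smallest p are named. The values of 1 neighbouring gene are not reported here. Alternatives were other pseudocounts, filters, scalings, variance models, voom on recovered reads, a replicate block and each library left out.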

Additional observations from a re-analysis of the deposited data

How the results depend on the processing

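Over 15 alternatives, 585 of 623 values of single members kept direction and side of limma's threshold, 34 passed it newly and 4 turned direction. All 34 came where an shFOXM1 library was left out. The members' median ran from -0.56 to -0.38. With each library left out in turn, limma called 0 to 1360 of all genes higher and 0 to 1744 lower, 0 to 27 members lower and 0 to 1 higher, and 0 to 13 of the other kinetochore genes lower and 0 to 1 higher. Voom with library weights called 17 genes higher and 9 lower, and 0 members; plain voom on recovered reads called 0 genes. Directions turned with single libraries left out, where the log2 fold change of CENPT lay between -0.00041 and 0.15, SGO2 between -0.052 and 0.27, ZWILCH between -0.56 and 0.012, SKA2 between -0.51 and 0.041, NOL8 between -0.25 and 0.11, RSRC2 between -0.17 and 0.049 and MRPL57 between -0.21 and 0.19, which was also at 0.00687 with library sizes from recovered reads. The cause was not tested. Deviations of like-numbered libraries correlated at 0.0421 across genes, and the labels do not say that cultures were paired. The replicate block called 0 genes and changed no call, with CENPA at -0.94 and an adjusted limma p of 0.188.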

Other observations

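Of the 42 members, 12 start within 1000 bases of a protein-coding gene that runs the other way, so that the genes of each pair begin from the same stretch of DNA. The neighbours' median log2 fold change was -0.03, beside -0.46 for the 12 members. With no overlap between groups, 4 neighbours were lower and 5 higher, against 25.9% and 27.3% of all genes tested. CENPQ was at -0.71 and its neighbour MUT, an enzyme of propionate metabolism whose start lies 187 bases away, at 0.41 (SE 0.19). MUT was at 13.2 and 12.6 FPKM in shControl and at 14.6 and 20.8 FPKM in shFOXM1. NSL1 was at -0.75 and TATDN3, 46 bases away, at 0.36 (SE 0.16), with 4.61 and 5.48 FPKM against 7.54 and 5.96 FPKM. CENPK was at -0.55 and PPWD1, 65 bases away, at 0.34 (SE 0.17). PTRHD1 beside CENPO and DERL2 beside MIS12 were higher too, at 0.48 and 0.33.

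OIP5 was at -0.58 and NUSAP1, a spindle protein that starts 73 bases away, at -0.60 (SE 0.12), with 6.49 and 6.44 FPKM in shControl and 4.07 and 3.77 FPKM in shFOXM1. SKA2 was at -0.24 with overlapping groups, while PRR11, 230 bases away, was at -0.63 (SE 0.19), with 18.5 and 17.6 FPKM against 13.6 and 9.36 FPKM. METTL4, whose start lies 2 bases from that of NDC80, was at -0.20. NOL8, RSRC2 and MRPL57 overlapped between groups, at -0.07, -0.06 and -0.01. The smallest adjusted limma p among the 12 neighbours was 0.183. The neighbours were looked up after the members' values were seen.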
